A study of Mus musculus with 18 samples.

Results

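Lhcgr, Fshr and Prlr encode the mouse receptors for luteinizing hormone (LH), follicle-stimulating hormone (FSH) and prolactin. They were taken by name from a gene count table of ovarian follicle cells and are 3 of its 41325 entries, and each passed the filter on low counts that left 19941 genes for testing. The study sequenced polyA-selected RNA from cumulus cells (CC), the layer around the oocyte, and from mural granulosa cells (MGC), which line the follicle wall. Cells came from ovaries of wild-type mice at 0, 4 and 12 h after an injection of hCG, a hormone that acts on the LH receptor and is used to start ovulation. The 6 groups were cumulus cells at 0, 4 and 12 h and mural granulosa cells at 0, 4 and 12 h, with 3 libraries each, and all 18 libraries shared the wild-type genotype and the hCG series. The titles set the cell type here: 8 of the 9 libraries with cumulus titles also carry a label that names the mural cell, and the 9th carries no cell type. Neither the age of the mice nor any priming before hCG is given in the sources used here, nor whether a library came from 1 mouse or from pooled mice. Since nothing says that replicates came from separate animals, the spread behind each p-value is that of these libraries and may in part be technical.

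The LH and FSH receptors are G protein-coupled receptors of the glycoprotein hormone family, which raise cyclic AMP and activate protein kinase A. FSH drives the growth of the follicle and induces the LH receptor in mural granulosa cells, while cumulus cells are known for carrying little of it. The ovulatory LH surge acts on mural cells and reaches the cumulus largely through EGF-like factors. The prolactin receptor belongs to the class I cytokine receptors, signals through the kinase JAK2 and the factor STAT5, and in rodents maintains the corpus luteum that forms from the ruptured follicle.

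Lhcgr and Fshr lie next to each other on the minus strand of chromosome 17 in the GRCm38 build. Lhcgr spans chr17:88716481-88791990 with 4 annotated transcripts (GENCODE M21), and Fshr spans chr17:88984952-89200675 with 1 transcript. The gap between them is 192961 bases and holds no other protein-coding gene. Prlr spans chr15:10177238-10349180 on the plus strand, with 12 transcripts. The counts are per gene, so the long and short forms of the prolactin receptor cannot be told apart in them.

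The promoters of the 2 gonadotropin receptors are shown because the neighbouring genes had different time courses and their promoters differ in base composition. The 250 bases before each start were taken from RefSeq on GRCm38.p6, minus strand, at chr17:88792015-88792264 for Lhcgr and chr17:89200676-89200925 for Fshr. Capitals mark the motifs found: GGGCGG (the GC box bound by Sp1 and Sp3), AGGTCA (a nuclear receptor site) and CACGTG (the E-box bound by USF factors).
Lhcgr: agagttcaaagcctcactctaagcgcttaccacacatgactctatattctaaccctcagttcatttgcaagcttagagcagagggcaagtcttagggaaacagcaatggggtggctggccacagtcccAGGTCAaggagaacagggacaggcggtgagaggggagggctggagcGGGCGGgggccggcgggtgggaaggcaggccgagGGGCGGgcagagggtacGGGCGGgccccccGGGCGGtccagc
Fshr: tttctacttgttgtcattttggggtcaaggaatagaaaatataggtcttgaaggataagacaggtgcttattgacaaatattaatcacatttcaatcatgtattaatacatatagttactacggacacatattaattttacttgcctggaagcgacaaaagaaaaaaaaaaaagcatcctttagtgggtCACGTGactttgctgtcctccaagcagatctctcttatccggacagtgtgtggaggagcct

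The 300-base windows from 250 bases before to 50 bases after the start were searched on both strands, and no 2 matches overlapped. In the Lhcgr window 64% of bases were G or C, against 40.7% in the Fshr window, with a median of 53% over all 32544 RefSeq promoter windows. Lhcgr held 4 GC boxes, the nearest ending 7 bases before the start, and 1 AGGTCA. Fshr held none of either and 1 E-box, 61 to 56 bases before the start. A GC box occurred in 35.88% of all windows, AGGTCA in 16.25% and CACGTG in 7.166%. Neither window held the cyclic AMP response element TGACGTCA (1.801% of all windows) or the GATA sequence AGATAA (11.16%). RefSeq lists 3 promoters for Prlr, 1 of which held a match to the STAT motif TTCNNNGAA (8.327% of all windows). These matches describe letters in a window and were not tested for binding.

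Library totals ran from 32211630 to 47919446 counts. Levels are given as CPM, the counts scaled to a library of 1000000 counts with trimmed-mean factors, where 3 counts correspond to 0.0585 to 0.0999 CPM. Oocyte markers summed to 430, 2019 and 2107 CPM in cumulus libraries at 0 h, to 2392, 1228 and 7630 CPM at 4 h and to 6.26 to 11.3 CPM at 12 h, and to 138 to 650 CPM in mural libraries. Cumulus replicate 1 at 0 h, which also had the highest mitochondrial share (12.8%), and cumulus replicate 3 at 4 h therefore stood apart. Of 4 cumulus markers, only Npr2 was called higher in cumulus than in mural libraries at 0 h, a count near the 21.5% of all genes called higher. All 10 theca and stroma markers were called lower in cumulus than in mural libraries at 0 h, where 25.3% of all genes were called lower. Their sum was 37.2 to 50.2 CPM in cumulus and 660 to 1151 CPM in mural libraries at that time. Ptch1 made most of the cumulus sum, and without it, a choice made after its values were seen, the sum was 4.69 to 9.26 CPM in cumulus and 589 to 1069 CPM in mural libraries. Theca cells also carry LH receptors. In bulk samples fewer cells of a type and less RNA per cell cannot be told apart.

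Lhcgr was a mural transcript at every time point. In cumulus cells it had 13.7, 9.44 and 2.41 CPM at 0 h, 4.67, 1.18 and 1.95 CPM at 4 h, and 4.88, 3.69 and 3.49 CPM at 12 h. In mural granulosa cells it had 690, 729 and 569 CPM at 0 h, 331, 350 and 337 CPM at 4 h, and 494, 566 and 581 CPM at 12 h. The lowest mural library was far above the highest cumulus library. Ranges of the cell types did not overlap for 56.2% of all genes tested at 0 h, 55.7% at 4 h and 62.2% at 12 h.

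The cell type difference was the largest of any among the 3 receptors. Lhcgr averaged 8.52 ± 5.70 CPM in cumulus and 662 ± 83.6 CPM in mural cells at 0 h (SD, n = 3 each), so that the cumulus level was 1.29% of the mural level. That share was 0.766% at 4 h and 0.735% at 12 h. The log2 difference of cumulus over mural was -6.29 ± 0.50 at 0 h (SE, edgeR quasi-likelihood test, Benjamini-Hochberg adjusted p = 3.20e-08), where 25.3% of all genes tested were called lower at an adjusted p under 0.05. It was -6.99 ± 0.53 at 4 h (edgeR adjusted p = 1.57e-08, 27.0% of genes lower) and -7.09 ± 0.53 at 12 h (edgeR adjusted p = 1.61e-08, 20.5% lower). Lhcgr lay in the lower set at each time.

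Cumulus Lhcgr rested on few reads, 105 to 502 counts a library at 0 h, 39 to 208 at 4 h and 126 to 165 at 12 h. Other genes of mural, theca and stromal cells had cumulus shares from 0 to above the mural level. Of 9 theca and stroma markers with a mural mean of at least 1 CPM, the 8 other than Ptch1 stood in cumulus at 0.428% to 4.56% of the mural level at 0 h, 0% to 5.39% at 4 h and 1.49% to 9.07% at 12 h. Ptch1, the hedgehog receptor, stood at 46.0%, 51.8% and 127% at these times. Among steroid genes, Cyp11a1, whose enzyme opens steroid synthesis, stood at 1.51%, 0.906% and 8.05%. Star, the cholesterol carrier, stood at 17.2%, 4.27% and 25.4%, and Hsd3b1 at 6.92%, 27.5% and 66.1%. Across the 3 cumulus libraries at 0 h, Cyp11a1 had 14.3, 16.0 and 3.03 CPM, and replicate 3 was the lowest library for it as it was for Lhcgr. The theca and stroma sum was 50.2, 37.2 and 39.2 CPM in these libraries, lowest in replicate 2. Whether mural or theca RNA took part in the cumulus Lhcgr level was not tested.

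**Figure D1:**
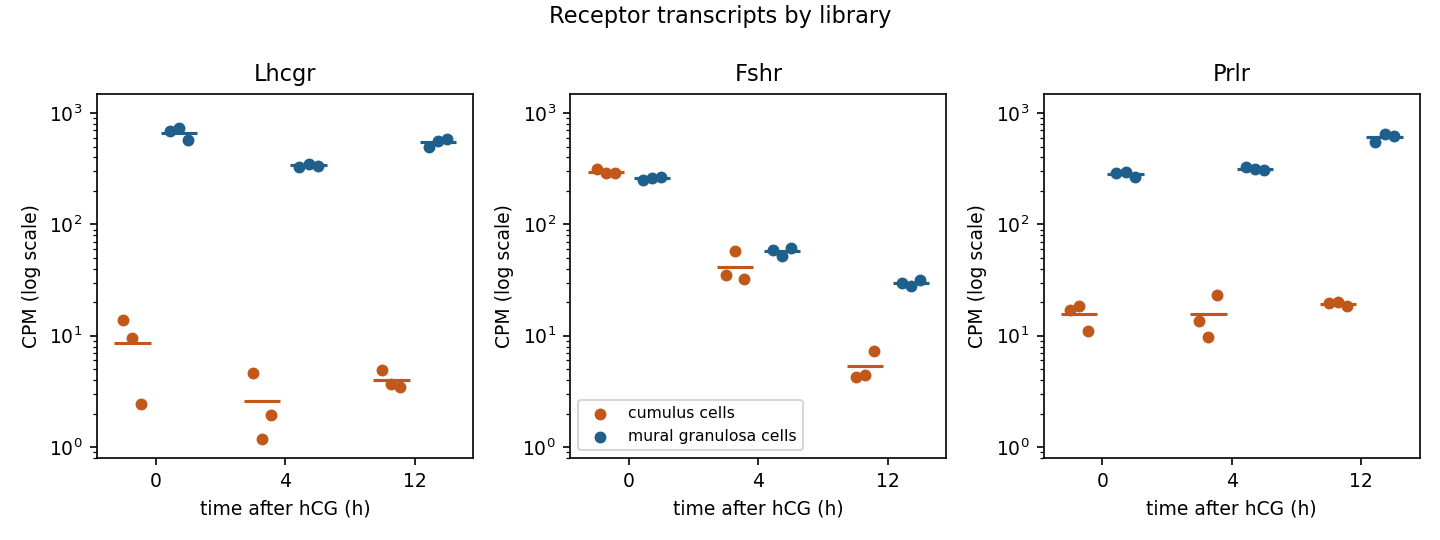
Counts scaled to a library of 1000000 (CPM) of Lhcgr, Fshr and Prlr in each library on a log scale, by hours after hCG, with cumulus libraries left of mural libraries and a bar at the mean of 3. Lhcgr and Prlr are separated by cell type at every time, while Fshr starts at 298 CPM in cumulus and 261 CPM in mural cells and falls in both.

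Over time, mural Lhcgr was lowest at 4 h, and no change passed the test. The 4 h libraries (331 to 350 CPM) lay below all 0 h libraries (569 to 729 CPM), a mean of 51.2% of the 0 h level. Ranges did not overlap for 61.7% of all genes tested in this comparison. The log2 change was -0.97 ± 0.40 (edgeR adjusted p = 0.0574), and 22.3% of genes were called lower. It passed the threshold in 6 of the 17 other analyses run for it. At 12 h the mean was 82.6% of the 0 h level, with overlapping libraries (log2 change -0.28 ± 0.39, edgeR adjusted p = 0.628, 19.0% of genes called lower). From 4 to 12 h the value was 0.69 ± 0.40 with ranges that did not overlap (edgeR adjusted p = 0.205, 18.3% of genes called higher). The SE of the mural comparisons came from a spread shared with the low and variable cumulus libraries. With only the 2 mural groups of each comparison in the fit, the same changes were -0.97 ± 0.10 at 4 h (edgeR adjusted p = 6.06e-06), -0.28 ± 0.10 at 12 h (edgeR adjusted p = 0.0306) and 0.69 ± 0.09 between 4 and 12 h (edgeR adjusted p = 3.67e-05).

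In cumulus cells Lhcgr was called lower at both later times, on ranges that overlapped. The 4 h mean was 2.60 ± 1.83 CPM, against 8.52 ± 5.70 CPM at 0 h (SD, n = 3 each; log2 change -1.67 ± 0.46, edgeR adjusted p = 0.00583, 22.8% of genes lower). The 12 h mean was 4.02 ± 0.750 CPM (SD, n = 3; log2 change from 0 h -1.08 ± 0.44, edgeR adjusted p = 0.0416, 32.9% of genes lower). Neither call held without cumulus replicate 1 at 0 h, where the changes were -1.16 and -0.57 (edgeR adjusted p = 0.0752 and 0.323). The 4 h call was also lost without 4 h replicate 2 (-1.34, edgeR adjusted p = 0.0513) or replicate 3 (-1.46, edgeR adjusted p = 0.0635). The 12 h call was lost as well without 0 h replicate 2 (-1.001) or any 12 h replicate (-1.24, -1.02 and -0.98). Lhcgr at 12 h did not differ from 4 h by the test (0.59 ± 0.47, edgeR adjusted p = 0.293). Leaving out 4 h replicate 1 gave a call there (1.36, edgeR adjusted p = 0.0359). Cumulus and mural changes were not called different for Lhcgr over any interval. The cumulus minus mural difference was -0.70 ± 0.60 from 0 to 4 h, -0.80 ± 0.59 from 0 to 12 h and -0.10 ± 0.62 from 4 to 12 h (edgeR adjusted p = 0.453, 0.301 and 0.919).

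Fshr fell in both cell types after hCG and fell further in cumulus cells by 12 h. Cumulus libraries had 316, 292 and 287 CPM at 0 h, 34.8, 57.9 and 32.6 CPM at 4 h, and 4.29, 4.43 and 7.26 CPM at 12 h. Mural libraries had 253, 261 and 269 CPM at 0 h, 59.3, 51.7 and 61.5 CPM at 4 h, and 29.6, 27.8 and 31.7 CPM at 12 h. Within each cell type no library of a later time reached one of an earlier time. Such ranges did not overlap for 45.6%, 69.3% and 61.9% of all genes tested in cumulus cells, and for 61.7%, 61.1% and 55.8% in mural cells, over 0 to 4 h, 0 to 12 h and 4 to 12 h.

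The mean cumulus level at 12 h was 1.78% of the 0 h level, a 56.0-fold lower value. At 4 h it was 14.005% of the 0 h level. The log2 changes were -2.84 ± 0.20 at 4 h against 0 h (edgeR adjusted p = 3.29e-09), -5.80 ± 0.23 at 12 h against 0 h (edgeR adjusted p = 1.05e-12) and -2.97 ± 0.21 at 12 h against 4 h (edgeR adjusted p = 3.57e-09, 31.3% of genes lower). In mural cells the 4 h mean was 22.1% and the 12 h mean 11.4% of the 0 h level. The mural changes were -2.18 ± 0.20 (edgeR adjusted p = 7.43e-08), -3.13 ± 0.20 (edgeR adjusted p = 1.06e-09) and, for 12 h against 4 h, -0.95 ± 0.19 (edgeR adjusted p = 0.000777, 16.1% of genes lower). At 4 and 12 h against 0 h, 22.8% and 32.9% of all genes were called lower in cumulus cells. In mural cells these shares were 22.3% and 19.0%. All 15 oocyte markers were also called lower in cumulus cells at 12 h against 0 h. Their sums in cumulus cells did not overlap between 12 h and 0 h, and their part in the Fshr change was not tested. All 6 of these Fshr calls held in each of the 17 or 18 other analyses run for them.

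The additional cumulus fall of Fshr passed the test of the difference between cell types. From 0 to 12 h the cumulus change minus the mural change was -2.67 ± 0.28 (edgeR adjusted p = 1.15e-06, 20.0% of genes called lower), and from 4 to 12 h it was -2.01 ± 0.28 (edgeR adjusted p = 2.90e-05, 21.2% called lower). From 0 to 4 h the difference of -0.66 ± 0.27 did not pass (edgeR adjusted p = 0.110, 7.26% of genes called lower). It was called without cumulus replicate 2 at 4 h, the highest of the 4 h cumulus libraries (-0.97, edgeR adjusted p = 0.00319).

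At a given time, cumulus and mural Fshr stood closest at 0 h and 4 h and furthest apart at 12 h. At 0 h the mean was 298 ± 15.4 CPM in cumulus and 261 ± 7.81 CPM in mural cells (SD, n = 3 each), with no overlap of the libraries, as for 56.2% of genes tested. The log2 difference of 0.19 ± 0.19 was not called (edgeR adjusted p = 0.410, 21.5% of genes called higher), though it was with only these 2 groups in the fit (0.22 ± 0.08, edgeR adjusted p = 0.0430). At 4 h the cumulus level was 72.7% of the mural level, with overlapping libraries, and the difference of -0.46 ± 0.19 only just passed (edgeR adjusted p = 0.0484). Leaving out cumulus replicate 1 (-0.35), cumulus replicate 3 (-0.25), mural replicate 1 (-0.44) or mural replicate 3 (-0.39) ended that call. With the oocyte marker sum as a covariate it was -0.01 ± 0.27 (edgeR adjusted p = 0.980). At 12 h the cumulus level was 17.9% of the mural level (-2.47 ± 0.21, edgeR adjusted p = 6.73e-08).

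Prlr was, like Lhcgr, mostly a mural transcript, but its mural level was highest at 12 h. Cumulus libraries had 17.1, 18.5 and 11.0 CPM at 0 h, 13.7, 9.80 and 23.1 CPM at 4 h, and 19.7, 20.1 and 18.4 CPM at 12 h. Mural libraries had 291, 297 and 267 CPM at 0 h, 330, 315 and 307 CPM at 4 h, and 555, 646 and 628 CPM at 12 h. The mural 12 h libraries stood above all others, and the cumulus groups overlapped one another.

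Mural Prlr at 12 h averaged 610 ± 48.4 CPM, against 285 ± 15.8 CPM at 0 h (SD, n = 3 each), a 2.14-fold higher level. The log2 change was 1.10 ± 0.22 against 0 h (edgeR adjusted p = 0.000507, 21.6% of genes called higher) and 0.94 ± 0.22 against 4 h (edgeR adjusted p = 0.00235). In this mural comparison with 0 h, 6 of 6 erythroid and 4 of 10 leukocyte markers were called higher, with sums of 380 to 734 CPM and 26.2 to 32.6 CPM at 12 h, against 87.7 to 145 CPM and 14.1 to 26.7 CPM at 0 h. Of 7 endothelial markers only Cdh5 was called higher, at 127 CPM at 12 h and 17.6 CPM at 0 h. The endothelial sums were 131 to 161 CPM at 12 h and 33.6 to 53.5 CPM at 0 h. Of 10 theca and stroma markers 1 was called higher and 2 lower, where 19.0% of all genes were called lower. The part of these cell types in the Prlr change was not tested. Both calls of Prlr held in all 17 other analyses run for each. Between 4 and 0 h the mural change of 0.15 ± 0.21 was not called (edgeR adjusted p = 0.596), and with library totals in place of trimmed-mean scaling it was -0.17.

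In cumulus cells no change of Prlr was called over any interval. It averaged 15.5 ± 4.01 CPM at 0 h, 15.5 ± 6.84 CPM at 4 h and 19.4 ± 0.902 CPM at 12 h (SD, n = 3 each). The log2 change was -0.00 ± 0.22 at 4 h against 0 h (edgeR adjusted p = 0.998), 0.32 ± 0.22 at 12 h against 0 h (edgeR adjusted p = 0.223) and 0.32 ± 0.22 at 12 h against 4 h (edgeR adjusted p = 0.229, 29.2% of genes called higher). Without cumulus replicate 3 at 4 h, the library with the most oocyte RNA, the change from 4 to 12 h was 0.68 and was called (edgeR adjusted p = 0.00182).

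Cumulus Prlr stood at 5.45% of the mural level at 0 h, 4.89% at 4 h and 3.18% at 12 h. The log2 differences were -4.20 ± 0.25, -4.35 ± 0.25 and -4.98 ± 0.26 in that order of times (edgeR adjusted p = 9.88e-10, 6.05e-10 and 2.73e-10). Of 10 theca and stroma markers, 10, 10 and 9 were called lower in cumulus than in mural libraries at these times. The shares of all genes called lower were 25.3%, 27.0% and 20.5%. The part of theca and stroma RNA in the Prlr difference was not tested. The Prlr change from 0 to 12 h was lower in cumulus than in mural cells by a value near the threshold, -0.78 ± 0.31 (edgeR adjusted p = 0.0537, 20.0% of genes called lower). Without cumulus replicate 3 at 0 h it was called (-1.001, edgeR adjusted p = 0.0153), as it was in 9 of the 24 other analyses in all. Over 4 to 12 h the difference was -0.62 ± 0.31 (edgeR adjusted p = 0.118), and it was called without cumulus replicate 2 at 4 h (-0.86, edgeR adjusted p = 0.0115).

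**Figure D2:**
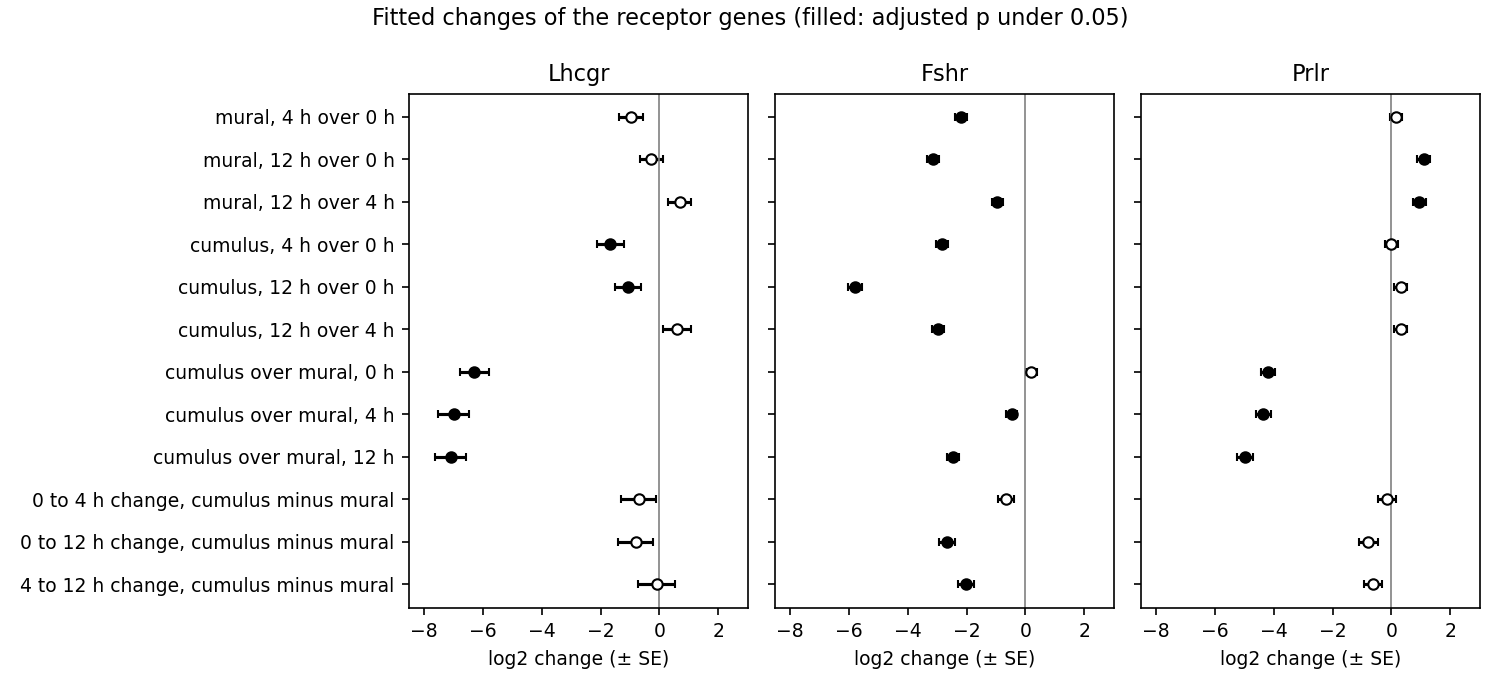
Fitted log2 changes with their SE for the 3 receptors in the 6 comparisons over time, the 3 comparisons of cumulus over mural cells and the 3 differences between the cell types' changes, with filled points at an adjusted p under 0.05. Fshr is filled below 0 in all 6 comparisons over time, while Prlr over time is filled above 0 in the 2 mural comparisons with 12 h on top.

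The levels of the 3 genes can be set beside each other only per length, so CPM was divided by the length of the merged exons, 7.645 kb for Lhcgr, 2.36 kb for Fshr and 15.339 kb for Prlr. In mural libraries the ratio of Lhcgr to Fshr on this scale had a median of 0.842 at 0 h, 1.72 at 4 h and 5.67 at 12 h. The corresponding cumulus medians were 0.00997, 0.0184 and 0.258. The ratio was below 1 in all 9 cumulus libraries and above 1 in all 6 mural libraries after hCG.

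Prlr over Fshr had mural medians of 0.175 at 0 h, 0.856 at 4 h and 3.05 at 12 h, and cumulus medians of 0.00835, 0.0604 and 0.698. Lhcgr over Prlr had mural medians of 4.75, 2.20 and 1.78 and cumulus medians of 1.02, 0.242 and 0.381 at the same times. Per length, Fshr thus led in every cumulus library and in the mural libraries at 0 h, and Lhcgr led in the mural libraries at 4 and 12 h. Dividing by the longest transcript instead put Prlr over Fshr above 1 in cumulus at 12 h (median 1.08) and in mural cells at 4 h (1.33), and Lhcgr over Prlr below 1 in cumulus at 0 h (0.740). Which transcripts were used was not measured.

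**Figure D3:**
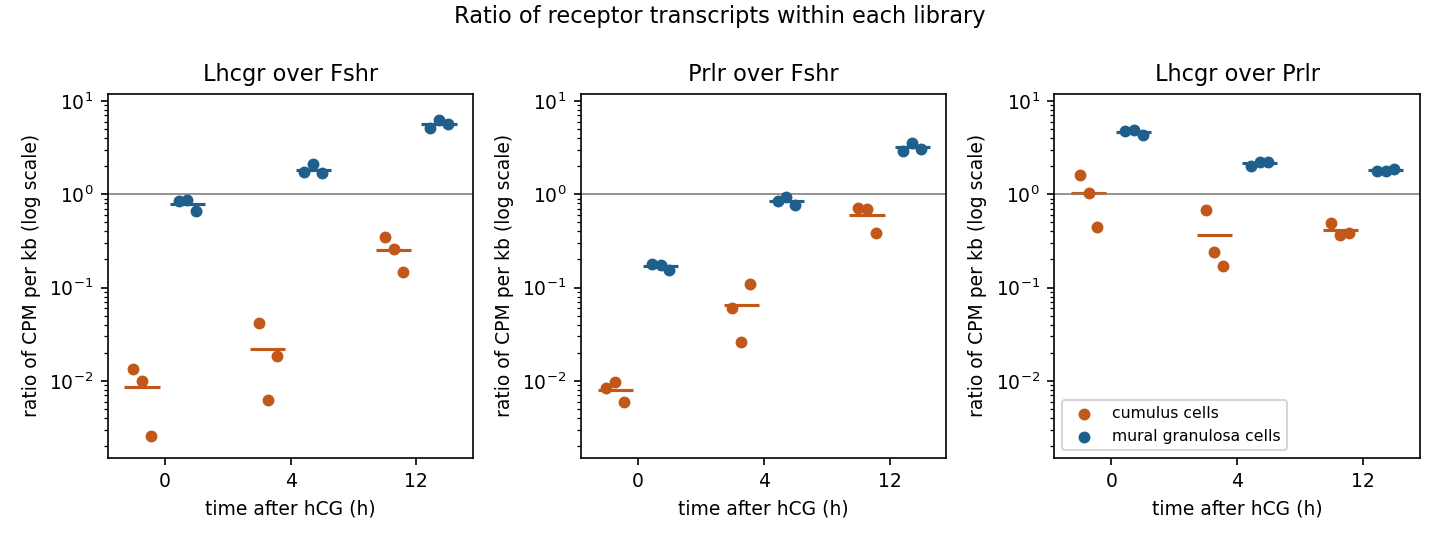
Ratio of CPM per kilobase of merged exons between 2 receptors within each library on a log scale, by hours after hCG, with a bar at the mean of 3 and a grey line at 1. The mural Lhcgr over Fshr ratio is lowest at 0 h (0.654 to 0.864) and highest at 12 h (5.15 to 6.28).

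Transcripts for the hormones themselves were near or at 0. Prl had 0 counts in all 18 libraries. Fshb, Cga (the shared alpha subunit), Tshb and Gphb5 averaged at most 0.211 CPM in any group. Lhb, the LH beta subunit, averaged 1.48 CPM in cumulus cells at 0 h, 2.25 CPM at 4 h and 0.153 CPM at 12 h, against 0.123, 0.178 and 0.229 CPM in mural cells. Gpha2, an alpha subunit of another glycoprotein hormone, averaged 1.38 CPM in cumulus cells at 0 h, 0.473 CPM at 4 h and 0.088 CPM at 12 h. The single Lhb libraries at 4 h in cumulus cells, 1.32, 0.546 and 4.87 CPM, ranked as their oocyte marker sums did, and the part of oocyte RNA in Lhb was not tested.

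Among relatives of the gonadotropin receptors, Tshr, the thyrotropin receptor, averaged at most 0.674 CPM in any group. Lgr4, a receptor for R-spondins, averaged 729 ± 56.1 CPM in mural cells at 12 h, against 73.3 ± 4.29 CPM at 0 h (SD, n = 3 each; log2 change 3.31 ± 0.19, edgeR adjusted p = 1.14e-10). Lgr6 ran the other way in cumulus cells, with 0.499 CPM at 12 h and 22.6 CPM at 0 h (log2 change -5.50 ± 0.50, edgeR adjusted p = 4.06e-08). Rxfp2, a receptor for insulin-like peptides, rose to 1.91 CPM in mural cells at 4 h, against 0.166 CPM at 0 h (log2 change 3.47, edgeR adjusted p = 2.54e-05). Lgr5, another R-spondin receptor, was lower in cumulus than in mural cells at 0 h (log2 difference -2.45, edgeR adjusted p = 0.000359). At 12 h against 0 h, 3 of the 6 relatives tested rose and 2 fell in cumulus cells, and 1 rose and none fell in mural cells. Of all genes, 31.2% rose and 32.9% fell in cumulus cells and 21.6% and 19.0% in mural cells, and the counts of 2 and 1 sit near those shares. The cumulus count called in either direction, 5, was 3 with the oocyte marker sum as a covariate.

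Relatives of the prolactin receptor, the class I cytokine receptors, mostly rose. Of 8 tested, 6 rose and 1 fell in cumulus cells at 12 h against 0 h, where 31.2% of all genes rose and 32.9% fell. In mural cells 6 rose and none fell, with 21.6% and 19.0% over all genes. Lepr, the leptin receptor, had 110.1 ± 12.7 CPM in cumulus cells at 12 h, against 0.892 ± 0.387 CPM at 0 h (SD, n = 3 each). In mural cells Lepr had 339 ± 26.2 CPM at 4 h, against 1.41 ± 0.858 CPM at 0 h (SD, n = 3 each; log2 change 7.90 ± 0.32, edgeR adjusted p = 3.60e-12). Osmr, the oncostatin M receptor, had 65.3 ± 2.54 CPM in cumulus cells at 12 h, against 0.316 ± 0.160 CPM at 0 h (SD, n = 3 each; log2 change 7.65 ± 0.36, edgeR adjusted p = 7.34e-12). Il6ra, the interleukin 6 receptor, had 16.6 CPM in cumulus cells at 12 h, against 1.57 CPM at 0 h (log2 change 3.40). Csf3r, the receptor for the granulocyte growth factor, had 2 counts over the 3 cumulus libraries and 203 counts over the 3 mural libraries at 4 h, and was called lower (edgeR adjusted p = 8.04e-05). In that comparison 8 of 10 macrophage and leukocyte markers were called lower and none higher, where 27.0% of all genes were called lower. The part of leukocyte RNA in Csf3r was not tested. The growth hormone receptor Ghr, a close relative of Prlr, was not called in mural cells at 12 h against 0 h and had 30.5 CPM there, against 34.5 CPM at 0 h.

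Downstream of LH and FSH receptors, 22 genes for G proteins, adenylyl cyclases, protein kinase A and the EPAC exchange factors were followed. At 12 h against 0 h, 14 rose and 4 fell in cumulus cells (median log2 change 0.87), while over all genes 31.2% rose and 32.9% fell (median -0.09). In mural cells 12 rose and 3 fell (median 0.32), while over all genes 21.6% rose and 19.0% fell (median -0.05). Crem, a cyclic AMP-responsive transcription factor, had 143 ± 55.4 CPM in cumulus cells at 4 h, against 6.82 ± 0.934 CPM at 0 h (SD, n = 3 each; log2 change 4.39 ± 0.29, edgeR adjusted p = 1.35e-09). Rapgef4, which encodes EPAC2, fell to 6.01 ± 0.832 CPM in cumulus cells at 12 h, against 233 ± 12.3 CPM at 0 h (SD, n = 3 each; log2 change -5.28 ± 0.20, edgeR adjusted p = 4.47e-13). Prkar1b, a regulatory subunit of protein kinase A, rose to 42.0 CPM in cumulus cells at 12 h, against 3.55 CPM at 0 h (log2 change 3.56 ± 0.20, edgeR adjusted p = 4.98e-11). Adcy4, an adenylyl cyclase, had 1 count over the 3 cumulus libraries and 144 counts over the 3 mural libraries at 0 h, and was called lower.

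Genes that switch off or traffic these receptors were called in both directions. Of 11, 5 rose and 3 fell in cumulus cells at 12 h against 0 h (median 0.19), and 2 rose and 2 fell in mural cells (median -0.15). The shares over all genes were 31.2% higher and 32.9% lower in cumulus and 21.6% and 19.0% in mural cells, so the mural counts were near the background. Arrb1, the arrestin that uncouples receptors from G proteins, had 236 ± 15.1 CPM in mural cells at 12 h and 21.03 ± 2.24 CPM at 4 h (SD, n = 3 each; log2 change 3.49 ± 0.22, edgeR adjusted p = 1.57e-09). Arf6, a small GTPase tied to arrestin release at the LH receptor in pig follicle membranes, had 563 ± 132 CPM in mural cells at 4 h, against 71.5 ± 6.61 CPM at 0 h (SD, n = 3 each; log2 change 2.98 ± 0.17, edgeR adjusted p = 1.99e-10). Grk5, a kinase that phosphorylates active receptors, had 27.4 ± 1.52 CPM in cumulus cells at 4 h, against 4.17 ± 0.421 CPM at 0 h (SD, n = 3 each; log2 change 2.71 ± 0.14, edgeR adjusted p = 3.39e-11). Grk3, a related kinase, was lower in cumulus than in mural cells at 0 h (log2 difference -2.49, edgeR adjusted p = 0.00654).

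Known regulators of Lhcgr and Fshr were likewise called in both directions. Of 14, 6 rose and 6 fell in cumulus cells at 12 h against 0 h, and 3 rose and 6 fell in mural cells, with medians of -0.02 and 0.05 whose signs changed under other scalings or with single libraries left out. Over all genes 31.2% rose and 32.9% fell in cumulus cells and 21.6% rose and 19.0% fell in mural cells, and the mural count of rises was near that share. Sp3, which binds GC boxes, rose to 300 CPM in cumulus cells at 12 h, against 69.7 CPM at 0 h (log2 change 2.11 ± 0.16, edgeR adjusted p = 2.52e-09). Foxo1, a transcription factor of growing follicles, fell to 198 CPM in cumulus cells at 12 h, against 1077 CPM at 0 h (log2 change -2.44 ± 0.14, edgeR adjusted p = 6.99e-11). Nr5a2, a nuclear receptor needed for ovulation in mice, averaged 257 CPM in cumulus and 1517 CPM in mural cells at 12 h (log2 difference -2.56 ± 0.14, edgeR adjusted p = 2.73e-10). Nr5a1, its relative, fell to 133 CPM in cumulus cells at 4 h, against 444 CPM at 0 h (log2 change -1.74 ± 0.14, edgeR adjusted p = 1.38e-08).

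Genes that FSH induces in granulosa cells mostly fell, as Fshr did. Of 9, 7 fell and 2 rose in cumulus cells at 12 h against 0 h (median -3.28), and 7 fell and 1 rose in mural cells (median -3.38). The share of all genes that fell was 32.9% in cumulus and 19.0% in mural cells, and that of genes that rose 31.2% and 21.6%. Inhbb, an inhibin and activin subunit, had 111 ± 11.9 CPM in cumulus cells at 12 h, against 8034 ± 1930.3 CPM at 0 h (SD, n = 3 each; log2 change -6.18 ± 0.30, edgeR adjusted p = 5.95e-12). Nppc, the precursor of the peptide that holds the oocyte in meiotic arrest, had 0.339 ± 0.0387 CPM in cumulus cells at 12 h, against 36.4 ± 10.5 CPM at 0 h (SD, n = 3 each; log2 change -6.73 ± 0.39, edgeR adjusted p = 9.85e-11). Cyp19a1, the aromatase that makes estrogen, had 49.5 ± 15.5 CPM in mural cells at 12 h, against 734 ± 145 CPM at 0 h (SD, n = 3 each; log2 change -3.89 ± 0.28, edgeR adjusted p = 3.39e-09). Cyp11a1 was the member that rose in both cell types, to 356 CPM in cumulus and 4425 CPM in mural cells at 12 h, against 11.1 CPM and 735 CPM at 0 h, and Igf1r was the other that rose in cumulus cells (0.49, named after its value was seen).

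The prolactin side was followed with 12 signalling genes and 10 luteal genes that prolactin regulates in rodents. Among the signalling genes, 7 rose and 3 fell in cumulus cells at 12 h against 0 h (median 0.46), and 5 rose and 4 fell in mural cells (median 0.62). Beside these stand 31.2% of all genes higher and 32.9% lower in cumulus cells, and 21.6% and 19.0% in mural cells. Socs3 and Cish, feedback inhibitors of JAK and STAT signalling, rose in both, with log2 changes of 3.79 ± 0.22 and 3.61 ± 0.25 in cumulus cells (edgeR adjusted p = 1.22e-10 and 6.75e-10). Socs1, another such inhibitor, fell to 2.64 CPM in cumulus cells at 12 h, against 21.03 CPM at 0 h (log2 change -2.99 ± 0.18, edgeR adjusted p = 1.31e-10).

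All 10 luteal genes rose in cumulus cells at 12 h (median 2.39), where Prlr itself was not called, and 8 rose and 1 fell in mural cells (median 1.62), where it rose. Cyp11a1 is in both the luteal and the FSH-induced list, so its rise counts in each. The list counts Akr1c18, which prolactin holds down, with the rest, so its counts and medians give no direction of prolactin action. Among all genes, 31.2% rose in cumulus cells, and 21.6% rose and 19.0% fell in mural cells. In the same cumulus comparison 4 of 10 theca and stroma markers were called higher and 1 lower. Of 6 erythroid markers 4 were called higher and 1 lower, and of 7 endothelial markers 2 higher and 4 lower. Over all genes 32.9% were called lower. Theca, erythroid and endothelial sums at 12 h were 119.9 to 123.6 CPM, 17.9 to 108.6 CPM and 164 to 201 CPM. At 0 h these were 37.2 to 50.2 CPM, 8.73 to 17.7 CPM and 16.7 to 24.3 CPM. Single genes made most of the theca and endothelial sums at 12 h, as seen from their values. Without Ptch1 the theca sum was 11.5 to 14.9 CPM at 12 h and 4.69 to 9.26 CPM at 0 h. Cdh5, an endothelial marker, averaged 164 CPM at 12 h and 4.01 CPM at 0 h. The part of other cell types in the luteal genes was not tested. The cumulus count was 6 with the oocyte marker sum as a covariate. Star, which carries cholesterol into mitochondria, had 3113 ± 711 CPM in mural cells at 4 h, against 21.6 ± 5.33 CPM at 0 h (SD, n = 3 each; log2 change 7.17 ± 0.28, edgeR adjusted p = 1.83e-12). Sgk1, a serine kinase, had 821 ± 59.3 CPM in cumulus cells at 12 h, against 15.04 ± 2.84 CPM at 0 h (SD, n = 3 each; log2 change 5.77 ± 0.22, edgeR adjusted p = 3.27e-13). Akr1c18, the enzyme that breaks down progesterone and that prolactin holds down in the rodent corpus luteum, had 66.7 ± 9.37 CPM in cumulus cells at 12 h, against 2.04 ± 0.438 CPM at 0 h (SD, n = 3 each; log2 change 5.03 ± 0.28, edgeR adjusted p = 5.19e-11). The gene that fell in mural cells was Hsd3b1, a progesterone-making enzyme (log2 change -1.68, named after its value was seen). Before hCG, 9 of the 10 luteal genes were called lower in cumulus than in mural cells and none higher, against 25.3% lower and 21.5% higher over all genes.

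**Figure D4:**
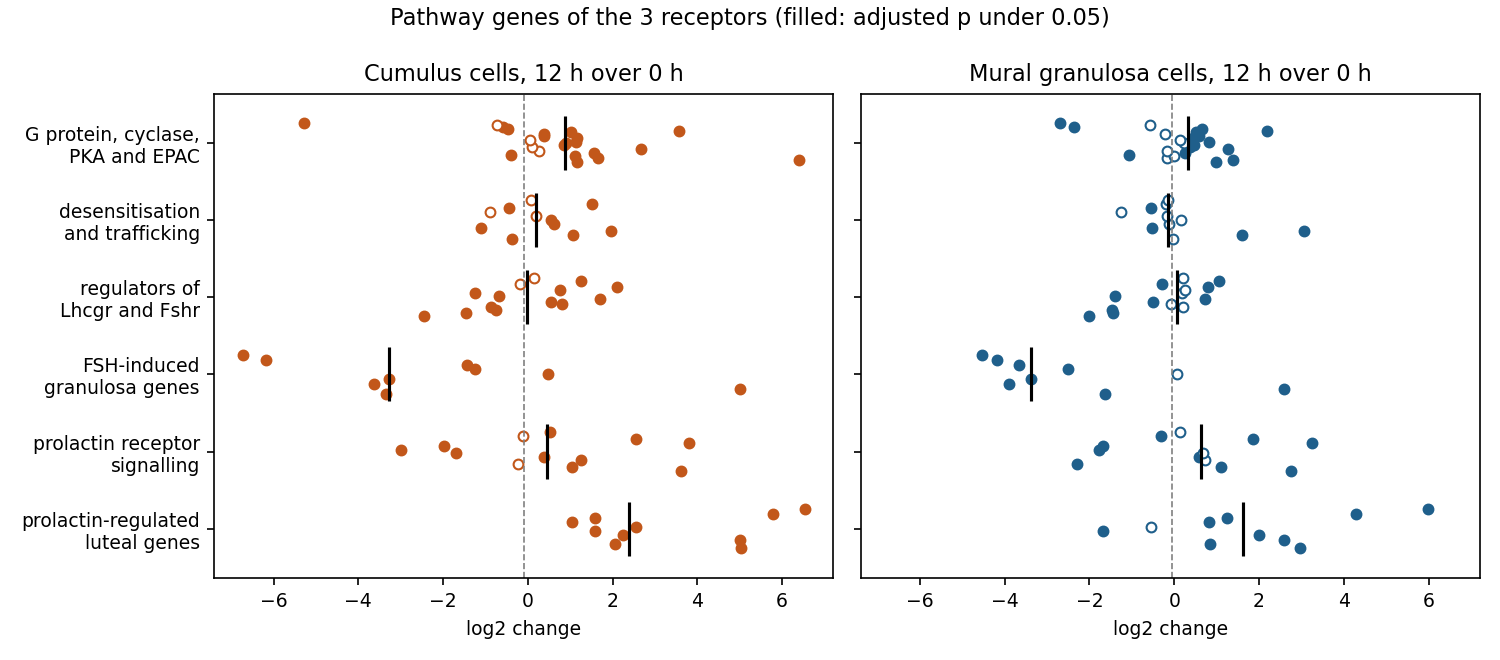
Log2 change at 12 h over 0 h of each gene in 6 pathway lists, in cumulus cells on the left and mural granulosa cells on the right, with filled points at an adjusted p under 0.05, a black bar at the list's median and a dashed line at the median of all genes tested. The FSH-induced list has its median at -3.28 in cumulus and -3.38 in mural cells, and the luteal list at 2.39 in cumulus and 1.62 in mural cells.

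Genes whose levels ran most like a receptor's over the 18 libraries were ranked by Pearson's r of log2 CPM among 12138 genes. These correlations describe libraries that share groups and scaling. For Fshr they were Abca4 (r = 0.985), Ankle1 (0.984), Dock9 (0.983), Flt4 (0.981) and Me3 (0.981). Their r was also high within the 9 cumulus libraries (0.988 to 0.998) and within the 9 mural libraries (0.936 to 0.985). Abca4 averaged 135 CPM at 0 h, 28.2 CPM at 4 h and 3.36 CPM at 12 h in cumulus cells, and 138, 35.8 and 11.9 CPM in mural cells.

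For Lhcgr the list was Scara3 (r = 0.977), Plxnb1 (0.976), Tcf21 (0.976), Cyp26b1 (0.975) and Msln (0.974), and for Prlr Msln (0.980), Scara3 (0.980), Cd34 (0.976), Plxnb1 (0.975) and Eln (0.974). Within a cell type several of these values were lower or of the other sign. Msln had r = -0.602 with Lhcgr within mural libraries, and Cd34 had r = 0.231 with Prlr within cumulus and 0.880 within mural libraries. Cd34, a surface protein of progenitor and vessel cells, averaged 52.5 CPM at 0 h, 138 CPM at 4 h and 285 CPM at 12 h in mural cells, and at most 2.37 CPM in a cumulus group. Few of the 5 genes stayed on the list under rank correlation (1 for Lhcgr and none for Fshr and Prlr). Among the receptors, Lhcgr and Prlr had r = 0.969 over all libraries but 0.402 within cumulus and 0.138 within mural libraries. Fshr and Prlr had r = -0.422 within cumulus and -0.808 within mural libraries.

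Gtf2a1l, a germ cell relative of a general transcription factor that lies 1328 bases from Lhcgr on the opposite strand, averaged 3.31 CPM in cumulus cells at 0 h, 8.12 CPM at 4 h and 0.0470 CPM at 12 h. The highest Gtf2a1l value, 16.7 CPM, came from the 4 h cumulus library with the most oocyte RNA. In mural cells Gtf2a1l averaged 3.22, 0.786 and 2.11 CPM at the same times. Its mural means thus stood in the same order of times as those of Lhcgr. Gm21973 shares 203 exon bases with Prlr on the same strand and had 0 counts in all 9 cumulus libraries and at most 0.907 CPM in a mural library. Spef2, a sperm flagellum gene 428369 bases before Prlr, fell to 6.75 CPM in cumulus cells at 12 h, against 190 CPM at 0 h (log2 change -4.82 ± 0.23, edgeR adjusted p = 7.92e-12).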

How the data were processed

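The authors deposited 1 table of raw gene counts for the 18 libraries, which per the series' design text came from CLC Genomics Workbench at default settings. The labels' protocols give a stranded mRNA kit and an Illumina sequencer, and the submitters' processing notes name the GRCm38 build; the strand setting of the counting is not given in the sources used here. Groups follow the titles.

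Counts were fitted in edgeR 4.0.16 (R 4.3.3) over all 6 groups with trimmed-mean scaling, a minimum count of 10 in the expression filter, robust quasi-likelihood and Benjamini-Hochberg adjustment at 0.05 across 19941 genes (99.96% of counts). The fit was tested on simulated data with the same spread set for every gene and library. That test did not cover an unequal spread between cumulus and mural libraries, as Lhcgr had here. CPM is the count per 1000000 after scaling, and SE is the log2 change over the root of F. No pair of replicates agreed within counting noise (chi-square per degree of freedom 7.93 to 260), so none was taken as 1 library deposited again; this does not show that they are separate animals.

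Receptors and pathway lists were chosen with earlier results of these data known. Named list genes were up to 4 per list with the largest called change at a mean of 1 CPM or more. Genes like a receptor were the 5 with the highest r at a mean of 5 CPM or more in the highest group, with a prior count of 2; neighbours were the nearest coding genes. Names of 40826 of 41325 entries matched GENCODE M21, which gave positions and lengths. Alternatives were other scalings, DESeq2 1.42.0, limma 3.58.1 voom, filters, a replicate block, an oocyte covariate, fewer groups and libraries left out.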

Additional observations from a re-analysis of the deposited data

Results flagged for a closer look

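The change of Fshr from 0 to 12 h differed between cumulus and mural cells by -2.67 ± 0.28 on the log2 scale (edgeR adjusted p = 1.15e-06). All 3 cumulus libraries at 12 h lay below all 3 mural libraries, where ranges did not overlap for 62.2% of all genes tested. At 0 h the cumulus libraries were the higher ones, where 56.2% of all genes had no overlap. In the fit over all groups that 0 h difference was not called (0.19 ± 0.19, edgeR adjusted p = 0.410). The change from 4 to 12 h differed between the cell types by -2.01 ± 0.28 (edgeR adjusted p = 2.90e-05). The range over the 24 other analyses was -3.54 to -2.53 for the first and -3.08 to -1.70 for the second. Oocyte markers summed to 6.26 to 11.3 CPM in the cumulus libraries at 12 h and to 430 to 2107 CPM at 0 h, without overlap. In the mural libraries they summed to 138 to 326 CPM at 12 h and to 156 to 650 CPM at 0 h. With that sum as a covariate the differences were -3.54 ± 0.47 and -3.08 ± 0.55, values that rest on extrapolation between groups that do not share a range, and the part of oocyte RNA was not tested. With each library left out in turn the differences ranged from -2.96 to -2.53 and from -2.30 to -1.70.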

How the results depend on the processing

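Of 690 receptor results under alternatives, 608 kept direction and side of the threshold, 33 lost a call, 32 gained one and 17 changed sign, all 17 of values that were not called. Of 2068 counts of called genes in the pathway lists, 1918 stayed within 1.5 times, and the marker lists were not run under alternatives. The cause of these shifts was not tested. The calls of Lhcgr and Prlr between cell types, of Fshr over time and of mural Prlr at 12 h held in every alternative run for them. Library totals in place of trimmed-mean scaling moved the median of all genes to -0.38 in mural cells at 4 h against 0 h, in place of -0.06, and to -0.34 in cumulus cells at 12 h against 0 h, in place of -0.09. The share of called genes that were higher was then 29.1%, 39.9% and 66.8% in mural cells over 0 to 4 h, 0 to 12 h and 4 to 12 h, in place of 50.6%, 53.2% and 53.2%, and 41.0% and 38.1% in cumulus cells at 4 and 12 h against 0 h, in place of 52.3% and 48.7%. It was 35.6% in place of 46.7% in cumulus over mural cells at 12 h, and 69.3% in place of 48.3% and 32.5% in place of 48.8% for the differences over 0 to 4 h and 4 to 12 h, the last 37.7% with the oocyte covariate.

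With library totals the log2 values were -1.29 (edgeR adjusted p = 0.0194) for mural Lhcgr at 4 h against 0 h, -0.17 for mural Prlr at 4 h against 0 h, -0.34 for Fshr in cumulus over mural cells at 4 h, and 0.0343, -0.85 and -0.89 for the Prlr difference between cell types over 0 to 4 h, 0 to 12 h and 4 to 12 h. With size factors in the edgeR fit, cumulus Prlr at 4 h against 0 h was 0.0336, Fshr in cumulus over mural cells at 4 h was -0.44 and the Prlr difference over 0 to 12 h was -0.84. DESeq2 gave 0.0340 and -0.84 for these 2 Prlr values. Without a filter, cumulus Lhcgr at 12 h against 0 h was -1.07 and Fshr in cumulus over mural cells at 4 h -0.46. A minimum count of 50 gave -0.44 for that Fshr value and -0.86 for the Prlr difference over 0 to 12 h, and the fit without robust estimation gave -0.46.

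With limma voom and library weights, mural Lhcgr was -1.05, -0.36 and 0.69 over 0 to 4 h, 0 to 12 h and 4 to 12 h, all called, and cumulus Lhcgr was -0.51, -0.54 and -0.0264, none called. Cumulus Prlr at 12 h against 4 h was 0.52, the Lhcgr and Fshr differences over 0 to 4 h were 0.54 and -0.87, the Prlr differences over 0 to 12 h and 4 to 12 h were -0.71 and -0.42, and the count of genes called different over 0 to 4 h was 5498 in place of 2800. With a weight per group, mural Lhcgr was -0.96 at 4 h against 0 h and 0.69 at 12 h against 4 h, cumulus Lhcgr was -1.50 and -0.75 at 4 and 12 h against 0 h, the Prlr difference over 0 to 12 h was -0.75 and the Lhcgr difference over 4 to 12 h was 0.0662. Genes called were then 6233 in place of 9532 in cumulus cells at 4 h against 0 h and 1596 for the difference over 0 to 4 h.

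With the oocyte marker sum as a covariate, mural Lhcgr at 4 h against 0 h was -1.06, cumulus Lhcgr was -1.28, -2.81 and -1.53 over 0 to 4 h, 0 to 12 h and 4 to 12 h, Fshr in cumulus over mural cells at 4 h was -0.0130 and the Prlr difference over 4 to 12 h was 0.17. Genes called were 6733 in place of 12796 in cumulus cells at 12 h against 0 h, 4325 in place of 12065 at 12 h against 4 h, 5734 in place of 10876 in cumulus over mural cells at 4 h, and 4865 in place of 8003 and 2732 in place of 8256 for the differences over 0 to 12 h and 4 to 12 h.

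Deviations of same-numbered libraries correlated from -0.290 to 0.403, above 0.1 in 10 of 45 pairs. For cumulus and mural libraries at 0 h the values were 0.375, -0.060 and 0.272 for replicates 1, 2 and 3. Libraries of different numbers were not set beside them, so whether replicate numbers pair the libraries cannot be decided from these values. With the replicate block, mural Lhcgr at 4 h against 0 h was -0.95 (edgeR adjusted p = 0.0499), cumulus Lhcgr at 12 h against 0 h -0.996 and Fshr in cumulus over mural cells at 4 h -0.46.

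With only the groups compared, mural Lhcgr was -0.97, -0.28 and 0.69 over 0 to 4 h, 0 to 12 h and 4 to 12 h, all called, and cumulus Lhcgr was -1.76 and -1.12 at 4 and 12 h against 0 h, neither called. Fshr in cumulus over mural cells was 0.22 at 0 h and -0.44 at 4 h, and the Prlr difference over 0 to 12 h was -0.81. Genes called were 5509 in cumulus cells at 4 h against 0 h and 1564 for the difference over 0 to 4 h.

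Without cumulus replicate 1 at 0 h and replicate 3 at 4 h together, cumulus Lhcgr was -0.97 and -0.59 at 4 and 12 h against 0 h, cumulus Prlr was 0.39 and 0.71 at 12 h against 0 and 4 h, Fshr in cumulus over mural cells at 4 h was -0.31 and the Prlr difference over 0 to 12 h was -0.71. With each replicate left out in turn, cumulus Lhcgr ranged from -2.43 to -1.16 at 4 h against 0 h, -1.54 to -0.57 at 12 h against 0 h and 0.27 to 1.36 at 12 h against 4 h. Fshr in cumulus over mural cells at 4 h ranged from -0.78 to -0.25, and cumulus Prlr from -0.39 to 0.23 at 4 h against 0 h and 0.0878 to 0.68 at 12 h against 4 h. Differences between cell types ranged from -1.27 to -0.29 and -0.42 to 0.67 for Lhcgr over 0 to 12 h and 4 to 12 h, -0.97 to -0.46 for Fshr over 0 to 4 h, and -0.51 to 0.0824, -1.001 to -0.65 and -0.86 to -0.30 for Prlr over 0 to 4 h, 0 to 12 h and 4 to 12 h. Genes called different over 0 to 4 h ranged from 2037 to 4272. The 39 to 208 cumulus Lhcgr counts at 4 h limit what can be said of that gene.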
